A study of Mus musculus with 2 samples.

Results

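The 10 genes described here encode cyclin-dependent kinase (CDK) inhibitors, the D cyclins and the retinoblastoma (Rb) proteins. They are Cdkn1b, Cdkn1c, Cdkn2c, Cdkn2d, Ccnd1, Ccnd2, Ccnd3, Rb1, Rbl1 and Rbl2. The CDK inhibitor genes Cdkn1a, Cdkn2a and Cdkn2b are not among them. The 10 genes were taken by symbol from the 32285 genes of the deposited matrices, and each symbol matched 1 row.

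The study profiled dissociated mouse retina at postnatal day 7 by single-cell RNA sequencing (10x Genomics 3' kit v3.1). The Mettl14-cKO library came from Mettl14 fl/fl mice that carried an Egfp/Cre fusion transgene, and the control library from age-matched mice given as Mettl14 fl/fl or fl/wt, for which no Cre transgene is listed. All animals therefore carried at least 1 floxed Mettl14 allele. The transgene drives Cre in retinal progenitors and is known to be mosaic, and microglia and retinal astrocytes do not descend from these progenitors. Each genotype was 1 library, and the labels do not give the number of animals pooled in it. No test between genotypes was possible, and all intervals below are 95% intervals for counting error only.

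D cyclins (Ccnd1, Ccnd2, Ccnd3) bind CDK4 or CDK6 and start the phosphorylation of the Rb proteins, which otherwise hold E2F transcription factors inactive in G1 phase. The Ink4 proteins encoded by Cdkn2c (p18) and Cdkn2d (p19) block CDK4 and CDK6, and the Cip/Kip proteins encoded by Cdkn1b (p27) and Cdkn1c (p57) act on CDK complexes more broadly, those of CDK2 among them. In mouse retina, Ccnd1 is the main D cyclin of progenitors, Cdkn1b and Cdkn1c act when progenitors leave the cell cycle, and Cdkn1b also keeps Müller glia from dividing. Mettl14 is a subunit of the enzyme complex that methylates adenosine in mRNA (m6A), typically in sequences such as GGACT.

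Barcodes with at least 1000 unique molecular identifiers (UMIs) were used, 13502 in the Mettl14-cKO and 11426 in the control library, with a median of 3212 and 3487 UMIs. Mettl14 itself stood at 14.5 CPM (UMIs scaled to a total of 1000000; 95% interval 13.5 to 15.5) in the Mettl14-cKO and at 27.1 CPM (25.7 to 28.5) in the control library; 3' tags can still be counted when an upstream exon is deleted. Of all barcodes, 57 sequences occurred in both libraries. Cells were assigned to classes by marker genes, none of which is among the 10 genes. In all, 9 classes had at least 50 barcodes in both libraries, and 2584 Mettl14-cKO and 1260 control barcodes remained unassigned. The defining markers were present in their classes in both libraries, among them Gngt1 (a rod transducin subunit) at 2942 and 6245 CPM in rods, Tfap2b at 1294 and 1076 CPM in amacrine cells and Rlbp1 at 641 and 1291 CPM in Müller glia. Gngt1 was also counted in Müller glia, at 155 and 425 CPM; the part of free RNA in this was not tested. The barcodes gated as cones also held the rod marker list at 31486 and 38129 CPM, against 34709 and 41806 CPM in rods, so values given for cones are not free of rod RNA. The class shares differed between the libraries, with rods at 24.0% of Mettl14-cKO and 37.8% of control barcodes, neurogenic cells at 8.42% and 2.92%, and cycling cells at 210 and 39 barcodes.

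A ratio is given as log2 of Mettl14-cKO over control. A gene was called higher or lower when it was at least 25% above or 20% below control and the intervals of both levels did not overlap, among genes with at least 30 UMIs in both libraries together. Over all barcodes, 4 of the 10 genes were called higher (Cdkn2c, Cdkn2d, Ccnd1 and Ccnd2) and 1 lower (Rb1), where 19.5% and 18.6% of 16164 genes were called higher and lower. The median log2 ratio was -0.10 for the 10 genes and -0.02 for all genes.

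**Figure D1:**
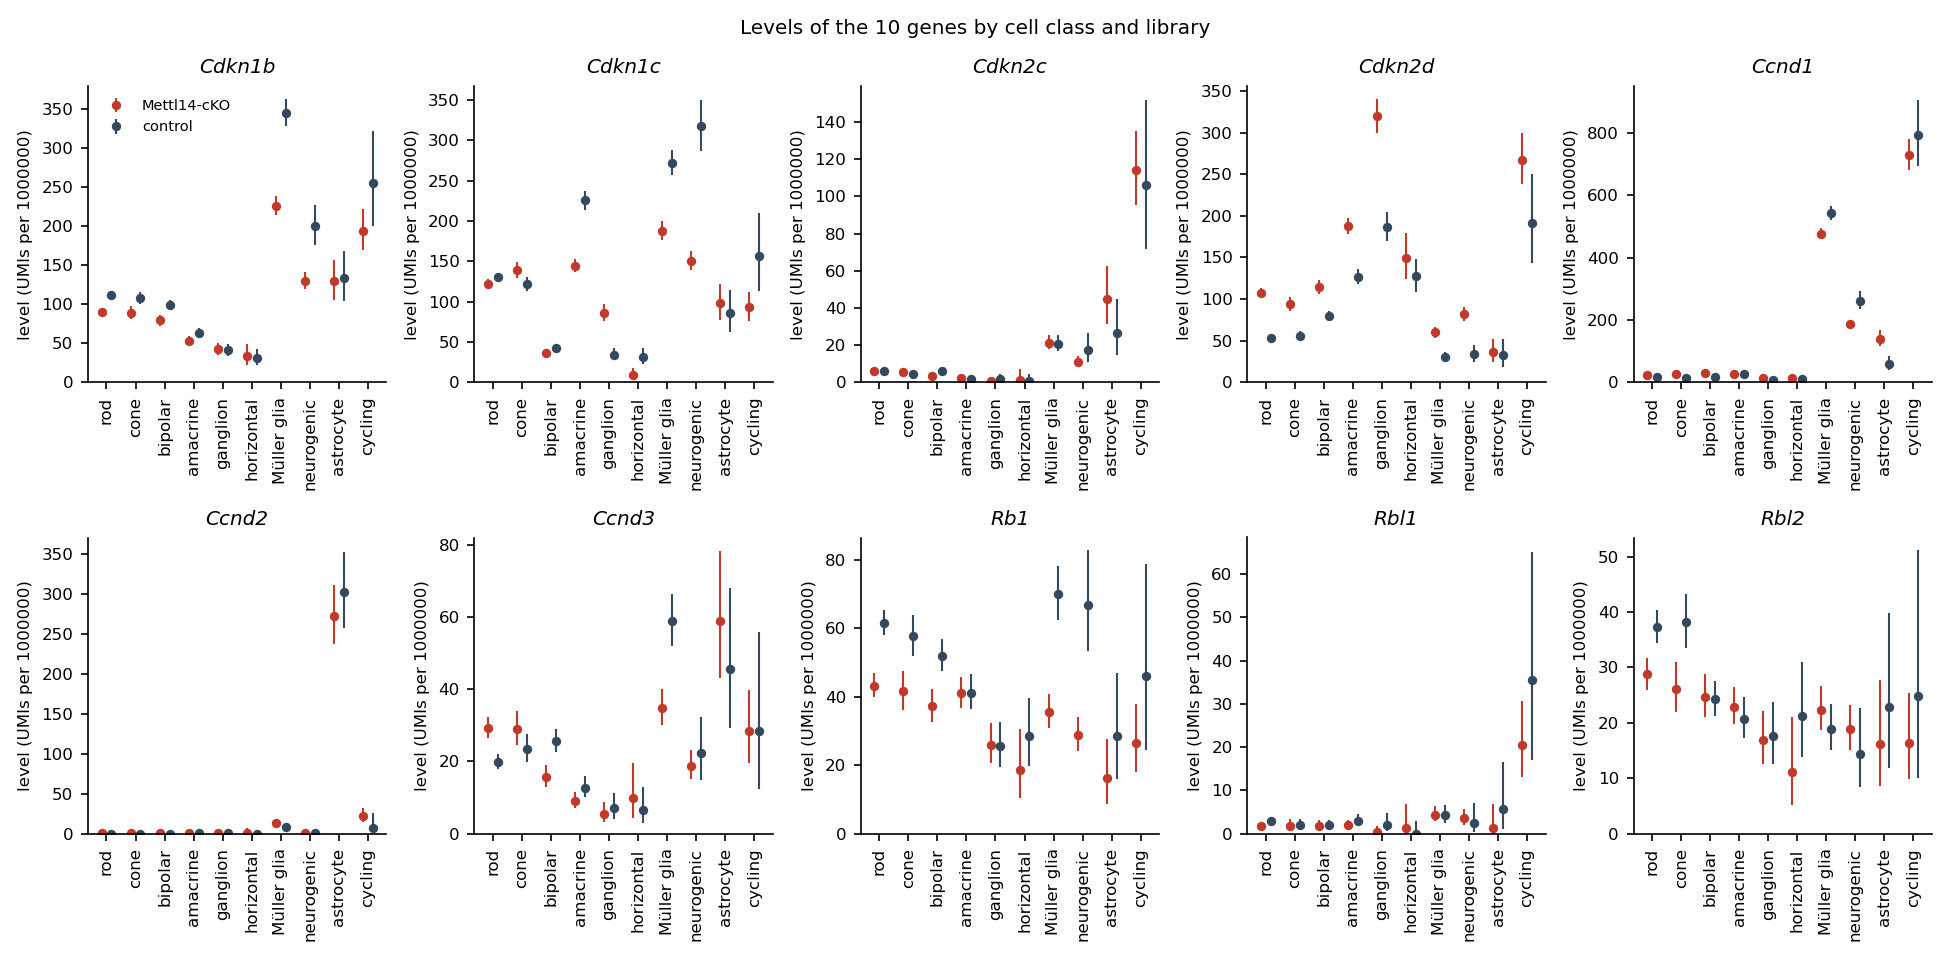
Level of each of the 10 genes in CPM (UMIs per 1000000, y axis, linear, from 0) in 9 cell classes and in cycling cells (x axis), Mettl14-cKO in red on the left and control in dark blue on the right of each pair. Points are sums over 1 library and bars are 95% Poisson intervals; Ccnd1, Cdkn1b and Cdkn1c stand highest in Müller glia, neurogenic or cycling cells, Cdkn2d in ganglion and cycling cells, and Ccnd2 in astrocytes.

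Within classes the genes moved in different directions. In rods 3 were called higher and 2 lower (background 16.4% and 18.4% of genes), in cone-gated barcodes 2 and 2 (13.1% and 14.1%), and in bipolar cells 2 and 3 (14.9% and 16.6%). In amacrine cells 1 was called higher and 1 lower (13.5% and 9.43%), in ganglion cells 2 and 0 (5.74% and 3.72%), and in horizontal cells 0 and 1 (4.71% and 3.59%). In Müller glia 1 was called higher and 4 lower (15.2% and 12.3%), in neurogenic cells 1 and 4 (8.32% and 9.70%), and in astrocytes 1 and 0 (2.12% and 1.82%). The genes with enough UMIs ranged from 5 in horizontal cells to 10 in Müller glia. With 10 genes, a class of the larger kind would hold 1 or 2 calls in each direction at these background shares. The counts stood furthest above this in Müller glia, with 4 of 10 lower, and in neurogenic cells, with 4 of 8 lower. With so few genes the counts say little of them as a set, and the values of single genes follow.

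**Figure D2:**
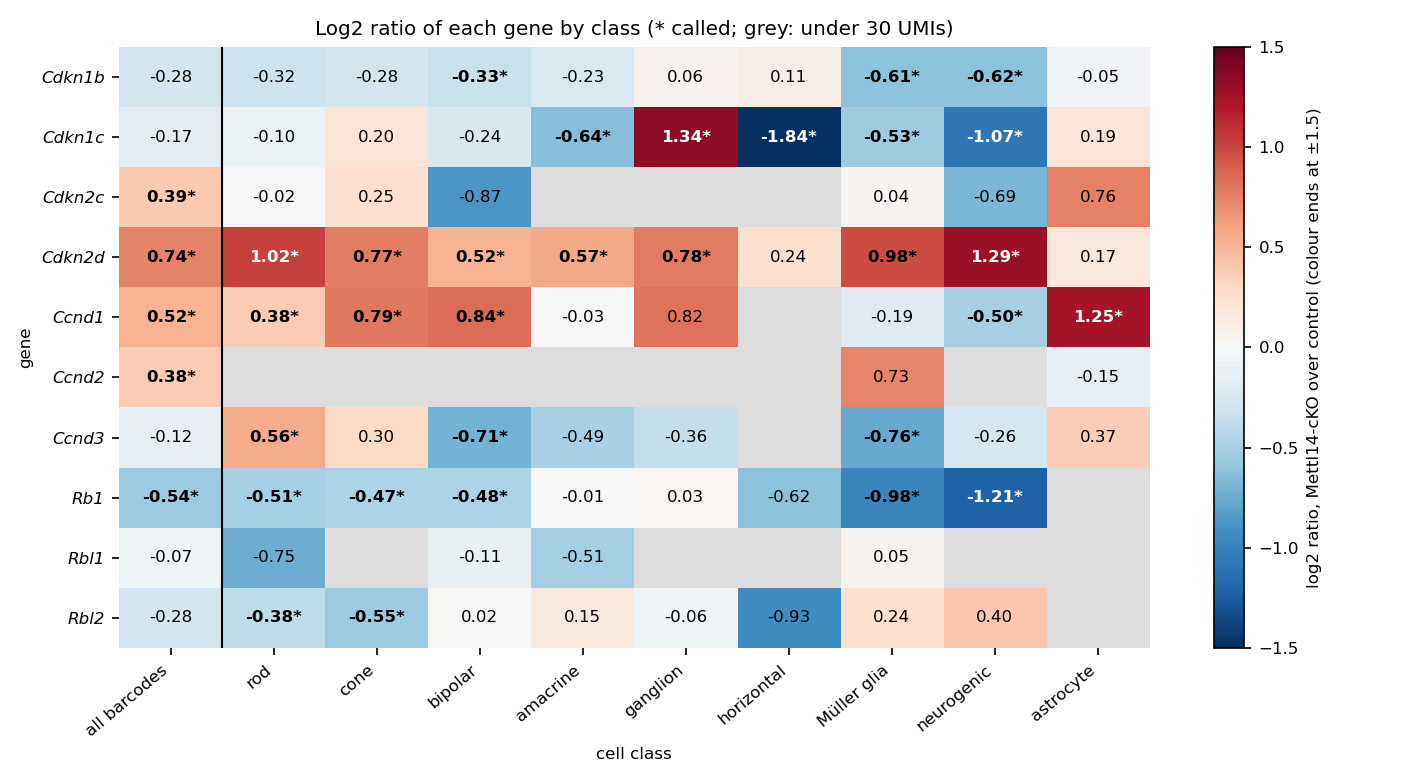
Log2 ratio of Mettl14-cKO over control for each gene (rows) over all barcodes and in each of 9 cell classes (columns); red is higher and blue lower in Mettl14-cKO, an asterisk marks a call, and grey marks genes with under 30 UMIs. Cdkn2d is above 0 in 9 of 9 classes, between 0.17 and 1.29, and Rb1 is called lower in 5.

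Cdkn1b encodes p27, which holds CDK2 and CDK4 complexes in check in cells that have left the cycle. The gene lies on chromosome 6 (GRCm38, chr6:134920401-134925513, plus strand). Its transcript of 4552 bases holds GGACT at 3 places, shown with flanking bases and the motif in capitals because it is a typical m6A context; whether any of them carries m6A was not measured.
Cdkn1b coding sequence, chr6:134921040-134921060: ctaacccgGGACTtggagaag
Cdkn1b 3' UTR, chr6:134922149-134922169: agaccccaGGACTgctggcag
Cdkn1b 3' UTR, chr6:134922238-134922258: acttgaggGGACTataatgca

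That is 0.66 GGACT per kilobase. Cdkn2d had none in 1423 bases, Cdkn1c had 2, Cdkn2c, Ccnd1 and Ccnd3 had 3 each, Rb1 4, Ccnd2 6, and Rbl1 and Rbl2 7 each. The median of the 10 genes was 1.0 per kilobase, against 1.01 over 21901 genes.

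Among the main classes Cdkn1b was highest in Müller glia, at 226 CPM (214 to 239) in Mettl14-cKO and 344 CPM (327 to 362) in control, a log2 ratio of -0.61 (-0.72 to -0.50). Neurogenic cells, which express proneural genes, stood at 130 CPM (120 to 140) in Mettl14-cKO and 200 CPM (176 to 226) in control, a log2 ratio of -0.62 (-0.84 to -0.41). Both classes were called lower. In bipolar cells the levels were 78.9 and 99.1 CPM, a log2 ratio of -0.33, which was called lower. This call was lost when totals left out mitochondrial and ribosomal protein genes (-0.31) and when scaling used the median ratio (-0.29). It was also lost after thinning to 1500 UMIs per barcode (-0.23) and with a stricter score for the classes (-0.31). Rods were at 89.6 and 112 CPM (log2 -0.32) and cone-gated barcodes at 88.7 and 107 CPM (log2 -0.28), both short of the fold required. Amacrine cells, at 53.2 and 62.5 CPM, ganglion cells, at 42.2 and 40.5 CPM, horizontal cells, at 33.4 and 31.0 CPM, and astrocytes, at 129 and 133 CPM, were not called. The order of levels was the same at its top in both libraries, with Müller glia first, while astrocytes and neurogenic cells overlapped in Mettl14-cKO (105 to 156 and 120 to 140 CPM).

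After each barcode was thinned to 1500 UMIs, 28.1% (25.8 to 30.4) of 1515 Mettl14-cKO Müller glia and 37.3% (34.3 to 40.3) of 1027 control Müller glia had a Cdkn1b UMI. Müller barcodes with 2 or more were 4.62% in Mettl14-cKO and 9.93% in control. In horizontal cells, where Cdkn1b was lowest, the thinned shares were 5.13% and 6.58%, with median depths of 9832 and 19487 UMIs against 3376 and 3706 in Müller glia. The Müller marker list moved with the gene. Its 16 genes summed to 18179 CPM in Mettl14-cKO and 35089 CPM in control Müller glia, with 13 called lower and 1 higher; in neurogenic cells the same list summed to 2593 and 5476 CPM. The part of Müller identity or of Müller RNA in the lower Cdkn1b was not tested. The same holds for the lower Cdkn1c and Rb1 in both classes, Ccnd3 in Müller glia and Ccnd1 in neurogenic cells, given below.

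Cdkn1c encodes p57, an imprinted inhibitor that in mouse retina marks progenitors leaving the cycle and a subset of amacrine cells. The gene lies at chr7:143458339-143461050 on the minus strand and overlaps Gm44732 on the other strand. Its log2 ratio ran from -1.84 in horizontal cells to 1.34 in ganglion cells, but its UMIs were unevenly spread over barcodes. Without the 5 highest in each library the range was -0.85 to 0.51. That range leaves out horizontal cells, where 2 UMIs remained in each library. In neurogenic cells it stood at 151 CPM (140 to 162) in Mettl14-cKO and 317 CPM (287 to 350) in control, a log2 ratio of -1.07 (-1.25 to -0.89). Müller glia held 188 CPM (177 to 200) in Mettl14-cKO and 272 CPM (257 to 287) in control, a log2 ratio of -0.53. Both were called lower, also when the 5 barcodes with the most Cdkn1c UMIs were left out of each library (log2 -0.85 and -0.47). Thinned shares ran the same way, with 14.8% of Mettl14-cKO and 21.4% of control neurogenic barcodes and 17.0% and 24.8% of Müller barcodes.

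In amacrine cells Cdkn1c was at 144 CPM in Mettl14-cKO and 225 CPM in control (log2 -0.64), called lower. The control sum rested on few barcodes: the 5 highest held 10.7% of the Mettl14-cKO and 26.8% of the control UMIs, with up to 33 and 91 in a barcode, and without them the log2 ratio was -0.36, still called lower. The thinned share of amacrine barcodes with a UMI was 10.2% (8.80 to 11.7) in Mettl14-cKO and 8.77% (7.28 to 10.4) in control, so the lower sum was not a lower share of positive barcodes. GABAergic amacrine cells, gated by Gad1 or Gad2, held most of it, with 679 of 1147 amacrine UMIs in Mettl14-cKO and 1133 of 1415 in control. They were at 151 and 335 CPM (log2 -1.15), a class in which 10.7% and 7.30% of genes were called higher and lower. The 5 highest barcodes held 15.2% and 33.5% of these UMIs, and without them the log2 ratio was -0.80, still called lower. Glycinergic amacrine cells were at 53.4 and 24.2 CPM from 23 and 17 UMIs, which was not called. Most of the remaining Cdkn1c UMIs lay in amacrine barcodes outside these subclasses, for which no ratio was computed. The lower level was therefore seen in GABAergic cells and is not shown for amacrine cells in general.

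Ganglion cells gave the opposite sign, with 85.4 CPM (75.4 to 96.4) in Mettl14-cKO and 33.9 CPM (26.9 to 42.1) in control. Those sums came from 263 UMIs in 32 barcodes of Mettl14-cKO and 81 UMIs in 31 barcodes of control. The 5 highest barcodes held 84.4% and 64.2% of them, 1 Mettl14-cKO barcode alone held 115, and without them the log2 ratio was 0.13 and no longer called. Horizontal cells had 7 and 38 UMIs, of which 22 came from 1 control barcode, so the sums of both classes rest on a few barcodes. In rods the levels were 122 and 130 CPM, in bipolar cells 36.2 and 42.7 CPM, in cone-gated barcodes 139 and 121 CPM and in astrocytes 97.6 and 85.5 CPM, none of them called.

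**Figure D3:**
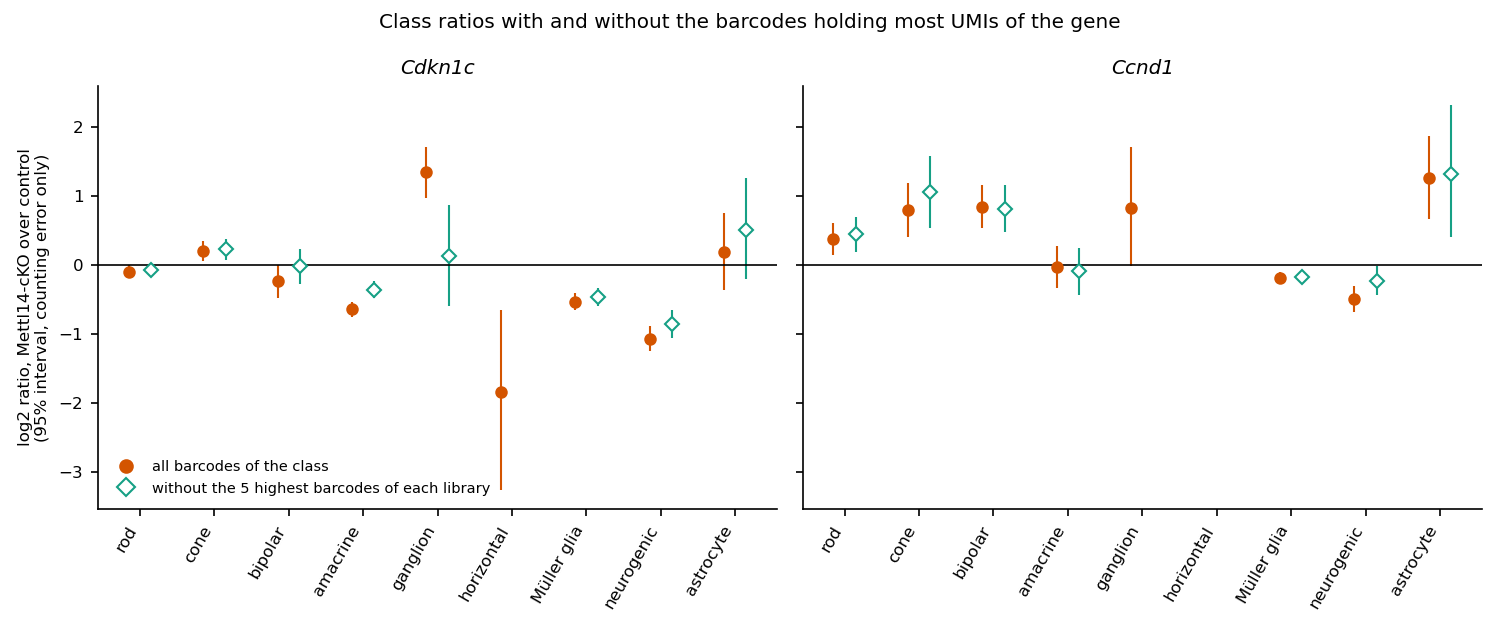
Log2 ratio of Cdkn1c (left) and Ccnd1 (right) in each class from all barcodes (orange circles) and without the 5 barcodes holding the most UMIs of the gene in each library (green diamonds), with 95% intervals for counting error; a missing point had under 30 UMIs. Cdkn1c in ganglion cells moves to 0.13 from 1.34, and Ccnd1 in neurogenic cells to -0.23 from -0.50.

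Cdkn2d encodes p19, the Ink4 protein that persists in postmitotic neurons. It lies at chr9:21288410-21291407 on the minus strand. Over all barcodes it stood at 123 CPM (120 to 126) in Mettl14-cKO and 73.6 CPM (71.3 to 75.9) in control, a log2 ratio of 0.74 (0.69 to 0.80). It was called higher in 7 of the 9 classes, with a median log2 ratio of 0.77 over the classes. The ratio was above 0 in the other 2 as well, horizontal cells at 150 and 127 CPM and astrocytes at 36.3 and 32.3 CPM, without a call.

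Rods held 108 CPM (102 to 113) of Cdkn2d in Mettl14-cKO and 53.2 CPM (49.8 to 56.7) in control, a log2 ratio of 1.02. Neurogenic cells held 81.8 CPM (73.8 to 90.4) in Mettl14-cKO and 33.5 CPM (24.1 to 45.2) in control, a log2 ratio of 1.29 from 385 and 42 UMIs. Müller glia held 59.8 CPM (53.6 to 66.5) and 30.3 CPM (25.4 to 35.8), a log2 ratio of 0.98. Among inner retinal neurons, ganglion cells were at 320 CPM (300 to 340) in Mettl14-cKO and 186 CPM (169 to 205) in control (log2 0.78, and 0.48 without a call after thinning), amacrine cells at 188 and 127 CPM (log2 0.57) and bipolar cells at 114 and 79.7 CPM (log2 0.52). Rod and cone bipolar cells gave nearly the same ratio, at 123 and 87.1 CPM (log2 0.50) and at 111 and 76.1 CPM (log2 0.55), where 10.7% and 12.3% of genes were called higher. Among the 9 main classes ganglion cells came first in level in both libraries. Amacrine and horizontal cells followed, with intervals that overlapped in both libraries.

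Thinned to 1500 UMIs, 15.5% (14.9 to 16.2) of 11874 Mettl14-cKO barcodes and 9.71% (9.13 to 10.3) of 9962 control barcodes had a Cdkn2d UMI. In rods the shares were 15.4% and 7.69%, in neurogenic cells 12.1% and 5.43%, and in Müller glia 7.59% and 3.99%. Few barcodes held more than 1, with 2 or more UMIs in 3.11% of Mettl14-cKO and 1.63% of control amacrine barcodes. In microglia, which do not descend from retinal progenitors, 1 of 108 Mettl14-cKO and 1 of 38 control barcodes had a UMI after thinning, and the levels there were 26.6 and 41.9 CPM from 20 and 10 UMIs. For comparison, Cdkn1a, the Cip/Kip gene outside the list, was at 118 and 27.3 CPM over all barcodes (log2 2.11).

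**Figure D4:**
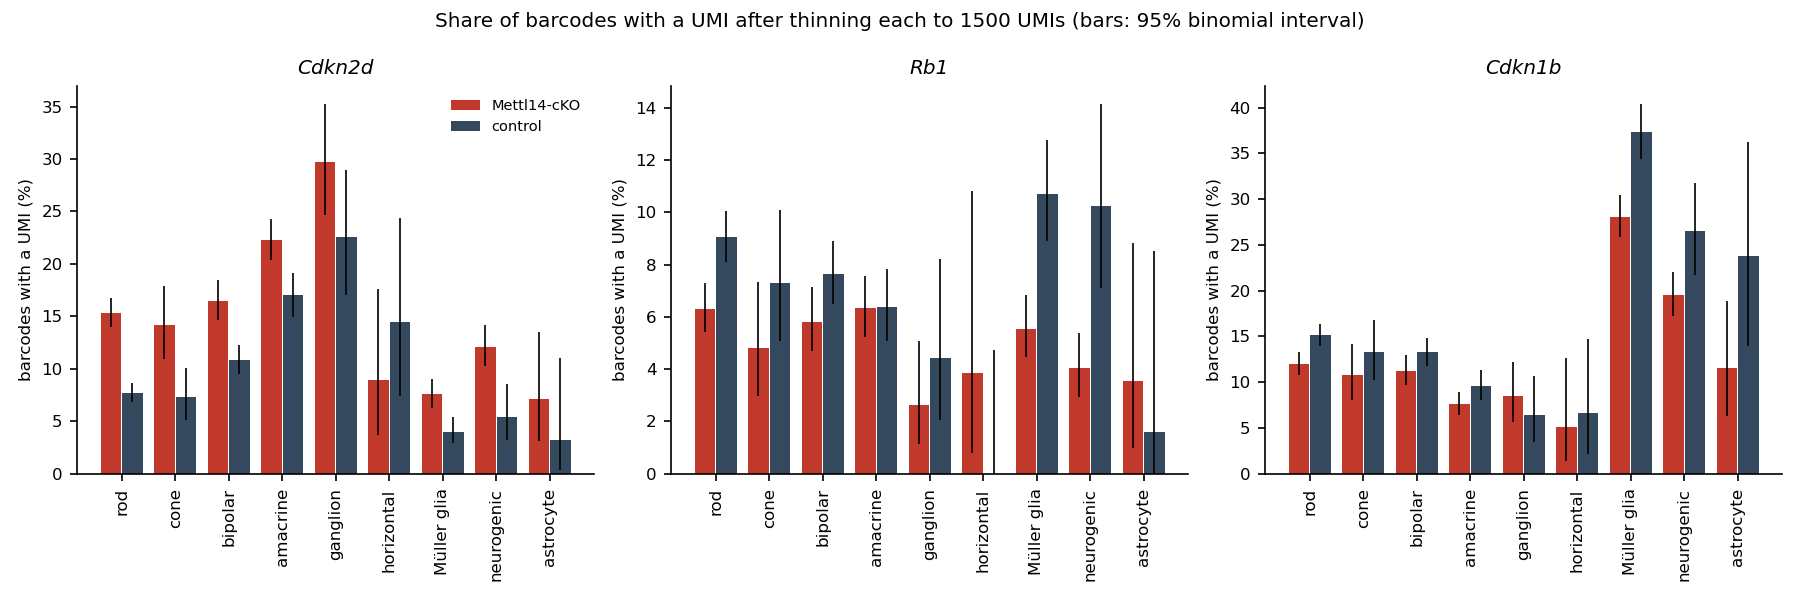
Share of barcodes with at least 1 UMI of Cdkn2d, Rb1 and Cdkn1b (panels, y axis in percent from 0) in 9 cell classes after each barcode was thinned to 1500 UMIs, Mettl14-cKO in red left of control in dark blue; bars carry exact 95% binomial intervals. The Cdkn2d share in rods is 15.4% in Mettl14-cKO and 7.69% in control, and the Rb1 share in Müller glia is 5.54% and 10.7%.

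Cdkn2c encodes p18, the Ink4 protein of dividing precursors, and lies on chromosome 4. Its levels were highest in cycling cells, at 114 CPM (95.6 to 135) in Mettl14-cKO and 106 CPM (71.8 to 152) in control, and these intervals overlapped. Müller glia held 21.3 and 20.7 CPM, astrocytes 45.0 and 26.6 CPM, and none of the 6 neuronal classes exceeded 6.23 CPM in either library. Over all barcodes Cdkn2c was called higher, at 9.66 CPM in Mettl14-cKO and 7.39 CPM in control (log2 0.39), yet in none of the 6 classes with enough UMIs, and the call was lost after thinning to 1500 UMIs (0.34). Cycling cells supplied 23.5% of its UMIs in Mettl14-cKO and 7.44% in control. In rod bipolar cells, where 11.0% of genes were called lower, it was at 1.82 CPM in Mettl14-cKO and 8.47 CPM in control from 3 and 32 UMIs, and called lower with a ratio interval of -4.57 to -0.54 in log2.

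Ccnd1 encodes cyclin D1 and lies at chr7:144929931-144939925 on the minus strand. It was not the highest D cyclin in every class. Ccnd3 stood higher in rods, cone-gated barcodes and control bipolar cells, and Ccnd2 in astrocytes. In cycling cells Ccnd1 was by far the highest D cyclin, at 730 CPM (681 to 780) in Mettl14-cKO and 794 CPM (694 to 906) in control. Müller glia followed at 476 CPM (458 to 494) in Mettl14-cKO and 542 CPM (521 to 564) in control, a log2 ratio of -0.19 (-0.27 to -0.11) that was short of the fold required. Over all barcodes Ccnd1 was called higher, at 108 and 74.9 CPM (log2 0.52), while neither of the classes richest in it was. Cycling cells supplied 13.5% of its UMIs in Mettl14-cKO and 5.48% in control, neurogenic cells 13.9% and 8.03%, unassigned barcodes 12.4% and 5.44%, and Müller glia 43.2% and 59.6%.

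With the classes weighted alike, by their UMI shares in the control library, the log2 ratio of Ccnd1 was 0.02 (-0.04 to 0.08). The same weighting gave -0.04 for Cdkn2c and 0.05 for Ccnd2, so 3 of the 4 genes called higher over all barcodes had weighted intervals that held 0. Cdkn2d stayed at 0.72 (0.66 to 0.78) and Rb1 at -0.49 (-0.57 to -0.41). The weighted ratio of Cdkn1b was -0.37 (-0.42 to -0.32), that of Cdkn1c -0.24 (-0.29 to -0.19) and that of Rbl1 -0.40 (-0.74 to -0.06), each further below 0 than over all barcodes summed (-0.28, -0.17 and -0.07).

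**Figure D5:**
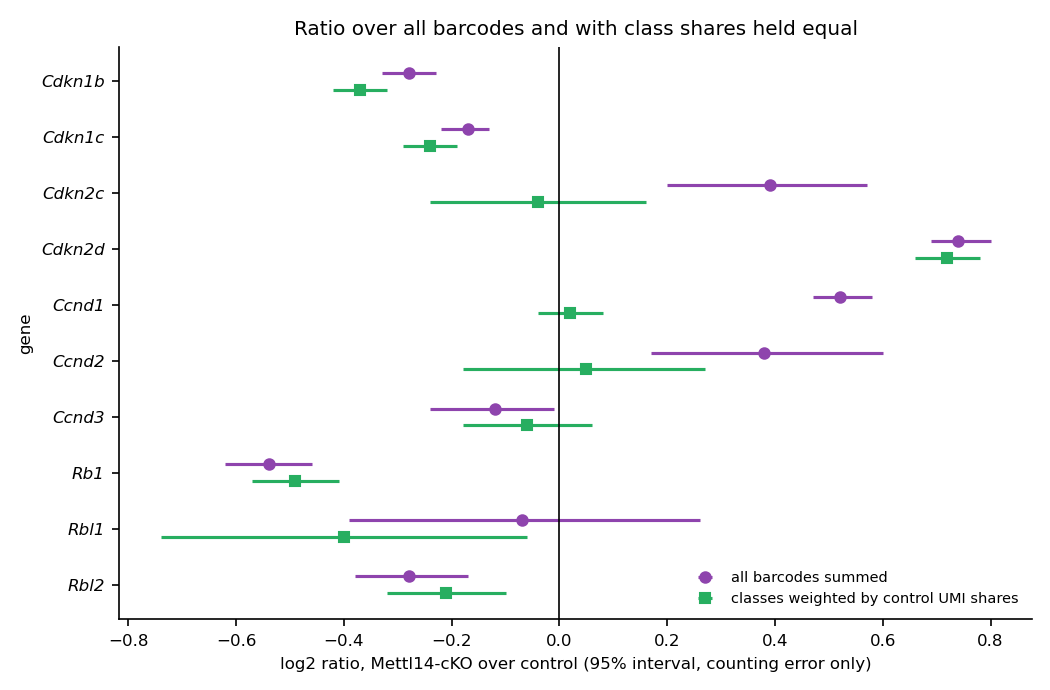
Log2 ratio of Mettl14-cKO over control for each gene with all barcodes summed (purple circles) and with classes weighted by the UMI shares of the control library (green squares), with 95% intervals for counting error. Ccnd1 is at 0.52 and 0.02, Cdkn2c at 0.39 and -0.04 and Ccnd2 at 0.38 and 0.05, while Cdkn2d is at 0.74 and 0.72.

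In neurogenic cells Ccnd1 stood at 185 CPM (173 to 198) in Mettl14-cKO and 261 CPM (234 to 291) in control, a log2 ratio of -0.50, called lower. The 5 highest barcodes held 8.49% of the Mettl14-cKO and 24.7% of the control UMIs, in classes of 1137 and 334 barcodes. Without them the log2 ratio was -0.23 and not called, though leaving them out takes more from control. The thinned shares, 18.8% (16.5 to 21.3) and 19.5% (15.2 to 24.3), overlapped. Ccnd1 was called higher in rods (23.2 and 17.8 CPM), bipolar cells (28.8 and 16.1 CPM), cone-gated barcodes (25.0 and 14.4 CPM) and astrocytes (140 and 58.9 CPM). Under a stricter cell filter, with at least 500 genes and at most 15% mitochondrial UMIs per barcode and without the barcodes that Scrublet marked as doublets, the log2 ratio was 0.25 in rods, -0.05 in cone-gated barcodes and 0.65 in astrocytes, and none of these was called. The bipolar call was kept. In astrocyte barcodes the Müller marker list summed to 19062 and 16696 CPM, and the part of Müller RNA in these values was not tested. Ganglion cells, which are postmitotic, had thinned Ccnd1 shares of 1.63% and 1.47%.

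Within Müller glia, Ccnd1 and Cdkn1b were found together in 11.7% of Mettl14-cKO and 18.4% of control thinned barcodes, close to the products of their single shares (12.4% and 18.2%). In neurogenic cells Ccnd1 and Cdkn1c were found together in 5.69% of Mettl14-cKO and 8.63% of control barcodes, above the products of 2.78% and 4.17%. Neurogenic barcodes with 3 or more Ccnd1 UMIs after thinning were 3.12% in Mettl14-cKO and 6.07% in control.

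Ccnd2 encodes cyclin D2 and lies on chromosome 6. Among the main classes it was highest in astrocytes, at 273 CPM (238 to 311) in Mettl14-cKO and 302 CPM (257 to 353) in control, with overlapping intervals. Astrocytes made up 0.852% and 0.551% of barcodes but supplied 50.9% and 52.0% of the Ccnd2 UMIs, and pericytes, with 32 and 29 barcodes, 9.58% and 17.3%. Over all barcodes Ccnd2 was called higher at 7.31 and 5.61 CPM (log2 0.38), a call lost after thinning to 1500 UMIs (0.21). In the 6 neuronal classes it had between 0 and 7 UMIs in either library; cone-gated control barcodes had 0, which allows up to 0.470 CPM, the level of 3 UMIs. Müller glia held 13.3 and 8.02 CPM, of which 71.1% and 80.6% came from 5 barcodes. Microglia had no Ccnd2 UMI in either library.

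Ccnd3 encodes cyclin D3, lies on chromosome 17 and overlaps Bysl on the other strand. Its directions differed between classes. In rods it was at 29.2 CPM (26.4 to 32.2) in Mettl14-cKO and 19.8 CPM (17.8 to 22.0) in control, called higher with a log2 ratio of 0.56. Müller glia held 34.8 CPM in Mettl14-cKO and 58.8 CPM in control, called lower with -0.76. Bipolar cells held 15.7 and 25.7 CPM, called lower with -0.71. Cone bipolar cells were at 14.2 and 25.5 CPM (log2 -0.84), called lower where 14.1% of genes were, and rod bipolar cells at 17.0 and 22.5 CPM (log2 -0.40), not called; this difference was not tested. The bipolar marker list was lower in Mettl14-cKO bipolar cells too, at 4902 against 8496 CPM in control, with 9 of 14 genes called lower; its part in the result was not tested. Thinned shares ran the same way, at 4.12% and 2.37% of rods, 3.96% and 8.08% of Müller glia and 2.23% and 4.23% of bipolar cells.

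Rb1 encodes the retinoblastoma protein and lies on chromosome 14, where Gm17233 overlaps it on the same strand, so some tags could belong to that gene. Over all barcodes it was at 37.0 CPM (35.5 to 38.6) in Mettl14-cKO and 53.9 CPM (52.0 to 55.9) in control, a log2 ratio of -0.54. It was called lower in 5 of the 8 classes with enough UMIs. Neurogenic cells held 28.9 CPM (24.2 to 34.2) in Mettl14-cKO and 66.9 CPM (53.4 to 82.9) in control, a log2 ratio of -1.21. Müller glia held 35.5 CPM (30.8 to 40.7) and 70.1 CPM (62.6 to 78.3), a log2 ratio of -0.98. The Müller marker list was also lower in both classes, and its part in these values was not tested. Rods were at 43.3 and 61.6 CPM (log2 -0.51), bipolar cells at 37.2 and 52.1 CPM (log2 -0.48) and cone-gated barcodes at 41.6 and 57.7 CPM (log2 -0.47). The bipolar and cone calls were lost after thinning, which leaves fewer UMIs (log2 -0.43 and -0.53).

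Amacrine and ganglion cells were not called for Rb1. Amacrine cells stood at 41.1 CPM (36.7 to 45.8) in Mettl14-cKO and 41.3 CPM (36.4 to 46.6) in control, a log2 ratio of -0.01 with an interval of -0.25 to 0.23, and ganglion cells at 26.0 and 25.5 CPM with an interval of -0.47 to 0.53. The amacrine interval lay wholly above those of Müller glia (-1.24 to -0.72) and neurogenic cells (-1.62 to -0.80), a comparison of counting intervals and not a test over animals. Thinned shares in Müller glia were 5.54% (4.45 to 6.82) and 10.7% (8.89 to 12.8), and in neurogenic cells 4.04% and 10.2%. In control the Rb1 order ran Müller glia, neurogenic cells, rods and cone-gated barcodes, with overlapping intervals. In Mettl14-cKO rods, cone-gated barcodes and amacrine cells overlapped at the top.

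Rbl1 encodes p107, the Rb protein known to accumulate in dividing cells under E2F control, and Rbl2 encodes p130, the one known for quiescent cells. Of the members with a promoter in the RefSeq table (GRCm38.p6), which were Cdkn1b, Cdkn2c, Cdkn2d, Ccnd3, Rbl1 and Rbl2, Rbl1 alone held an E2F-type octamer. The letters searched were TTTCCCGC, TTTGGCGC, TTTCGCGC and TTTGCCGC on both strands, which cannot match the same 8 bases of a strand, in 300 bases around each start. The 250 bases before the Rbl1 start are shown on its minus strand with the octamer in capitals.
Rbl1 promoter, chr2:157204535-157204784: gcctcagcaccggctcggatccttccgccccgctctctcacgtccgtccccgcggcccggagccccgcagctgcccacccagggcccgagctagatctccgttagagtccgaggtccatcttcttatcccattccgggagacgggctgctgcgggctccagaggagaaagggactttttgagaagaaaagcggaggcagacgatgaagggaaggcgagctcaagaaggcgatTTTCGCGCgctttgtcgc

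The octamer starts 18 bases before the annotated start. Such a match was found in 744 of 32851 promoter windows (2.26%), and in 1 of the 8 windows of these genes. Cdkn1c, Ccnd1, Ccnd2 and Rb1 were not in the table.

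Rbl1 was the lowest of the 10 genes over all barcodes, at 2.82 and 2.95 CPM. Cycling cells stood apart with 20.6 CPM (13.2 to 30.6) in Mettl14-cKO and 35.5 CPM (17.0 to 65.2) in control from 24 and 10 UMIs. In the 9 main classes it stayed at or under 4.37 CPM in both libraries, apart from 3 UMIs in control astrocytes (5.70 CPM). None of the 4 classes with enough UMIs was called. Rods came nearest, with 23 UMIs in Mettl14-cKO and 50 in control, at 1.72 and 2.88 CPM.

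Rbl2 was at 23.6 and 28.7 CPM over all barcodes. In rods it was at 28.8 CPM (26.0 to 31.8) in Mettl14-cKO and 37.3 CPM (34.5 to 40.3) in control, called lower with a log2 ratio of -0.38. The cone-gated barcodes, which hold rod RNA, were at 26.1 and 38.2 CPM (log2 -0.55), also called lower. Scaling by the median ratio in place of the total ended the rod call (-0.31), as did thinning (-0.49). Bipolar cells, at 24.7 and 24.3 CPM, amacrine cells, at 22.9 and 20.7 CPM, Müller glia, at 22.4 and 18.9 CPM, and ganglion cells, at 16.9 and 17.6 CPM, gave no call.

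In cycling cells, where control had 39 barcodes and more rod RNA (rod list 3122 CPM in Mettl14-cKO, 9456 CPM in control), 8 of the genes had enough UMIs and Cdkn1c alone was called, at 92.7 and 156 CPM (log2 -0.75, lower). Of all genes 5.88% were called higher there and 5.59% lower. The 5 highest barcodes held 17.6% of the Cdkn1c UMIs in Mettl14-cKO and 52.3% in control, and without them the log2 ratio was -0.25 and not called. Leaving out these barcodes takes more from control, so no conclusion is drawn from the lost call. Cdkn2d was at 268 and 192 CPM, Cdkn1b at 194 and 255 CPM and Rb1 at 26.6 and 46.1 CPM, with overlapping intervals. Without the 5 highest barcodes Cdkn2d was at 246 and 143 CPM (log2 0.78, 0.26 to 1.35) and called higher. Leaving them out took 11.9% of its Mettl14-cKO and 38.9% of its control UMIs, as 5 is a larger part of 39 than of 210 barcodes. This moves the ratio upward by construction, so no conclusion is drawn from that call. In unassigned barcodes Cdkn2d and Ccnd1 were called higher, at 102 and 71.3 CPM and at 97.7 and 55.0 CPM, and Cdkn1b and Rb1 lower, at 95.3 and 121 CPM and at 37.2 and 50.3 CPM; 12.9% and 14.0% of genes were called higher and lower there.

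Of 33 other genes of the G1 to S transition, all measured over all barcodes, 7 were called higher and 4 lower (background 19.5% and 18.6% of genes), with a median log2 ratio of 0.04. The count of 7 was near the background share and that of 4 below it, so neither is a result about the list, and the called genes are given as single values. The genes higher were the kinase genes Cdk4 (245 and 190 CPM) and Cdk2 (1.67 and 1.05 CPM), the E cyclin Ccne1 (5.32 and 3.43 CPM), E2f1 (10.1 and 4.90 CPM) and E2f6 (19.0 and 14.1 CPM). Also higher were the E2F partner Tfdp2 (62.9 and 45.3 CPM) and Cks1b (65.4 and 44.0 CPM), whose protein helps the Skp2 ligase bind p27. Lower were the repressor E2f5 (18.6 and 26.8 CPM), the DREAM complex subunits Lin37 (29.6 and 39.1 CPM) and Lin52 (4.96 and 8.51 CPM), and Usp2 (6.56 and 15.3 CPM), a deubiquitinase of cyclin D1. E2f5 and E2f6, both repressors, were called in opposite directions, and the class shares that differ between the libraries enter all of these values.

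In rods 27 of the 33 genes had enough UMIs, with 4 higher and 5 lower (background 16.4% and 18.4%), again near the background. Cdk4 was at 136 and 92.9 CPM, Cks1b at 51.4 and 31.9 CPM, E2f6 at 20.8 and 13.1 CPM and Tfdp2 at 38.6 and 30.4 CPM, all higher. Usp2 was at 8.44 and 20.6 CPM, Lin52 at 5.97 and 10.4 CPM, E2f5 at 20.9 and 32.1 CPM, E2f3 at 31.7 and 41.7 CPM and Hdac2, a histone deacetylase that Rb proteins recruit, at 77.5 and 98.7 CPM, all lower. In Müller glia 3 of 25 were higher and 1 lower (background 15.2% and 12.3%). The higher genes were E2f3 (27.8 and 14.3 CPM), Cks1b (94.4 and 60.3 CPM) and Fbxw7 (141 and 99.8 CPM), whose ligase degrades cyclin E, and the lower gene was E2f5 (38.1 and 56.6 CPM). E2f3 was lower in rods and higher in Müller glia, with the difference between the classes not tested. In neurogenic cells none of 23 was called higher and 3 were lower (background 8.32% and 9.70%), Hdac2 (113 and 188 CPM), Hdac1 (45.9 and 66.2 CPM) and Tfdp2 (131 and 167 CPM).

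The genes most like each member were sought over 18 points, 9 classes in 2 libraries, by Pearson correlation of log2(CPM + 1) among 11229 genes; points of a class share their cell type and points of a library their preparation. Ccnd2 was most like Pdgfra (r = 0.986), itself an astrocyte marker of the gate, and Optc (0.982). Ccnd1 was most like Bdh2 (0.980) and E130114P18Rik (0.978), and Cdkn2c like Syngr2 (0.959) and Pbxip1 (0.944). Cdkn1b followed Rdh10 (0.940) and Tspan15 (0.936), Cdkn2d followed Fbll1 (0.936) and Noct (0.929), and Cdkn1c followed Ankrd28 (0.897) and Ttf2 (0.852). Ccnd3 was most like Twsg1 (0.941) and Pnrc2 (0.937), Rb1 like Cdc37l1 (0.910) and Lbr (0.901), Rbl2 like Zbtb34 (0.907) and Nol4l (0.894), and Rbl1, with the fewest UMIs, like Plpbp (0.836) and Tmem209 (0.831).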

How the data were processed

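Cells came from papain digestion of retina, per the labels' protocols. The promoter of the Cre transgene is not reported here. The authors deposited UMI counts; Cell Ranger 6.1.1 and mm10 (the same build as GRCm38) are named in the submitters' processing notes; intron and filter settings are not given in the sources used here. The values are whole-number counts with no normalization, for 15319 Mettl14-cKO and 13287 control barcodes holding 59856468 and 55921787 UMIs, with a lowest total of 500.

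Barcodes under 1000 UMIs were left out. Classes were set per barcode from markers: z-scores of log2(1 + counts per 10000), clipped at 3, were averaged over each marker list. A class needed a score of at least 0.3, a margin of 0.1 and 3 markers with a UMI; horizontal cells also needed Lhx1 or Onecut1, and astrocytes Gfap or Pax2. These limits were set with the data in view, and 2270 Mettl14-cKO and 1106 control unassigned barcodes scored under 0.4. Doublets were kept in the main values and removed with Scrublet (scanpy 1.11.5) in an alternative that also required 500 genes and at most 15% mitochondrial UMIs; Scrublet marked 12.0% of Mettl14-cKO and 6.92% of control barcodes. Sums of UMIs over the barcodes of a class in a library were divided by the total of that class (CPM). Levels carry exact Poisson, ratios exact conditional and shares Clopper-Pearson intervals; weighted ratios carry approximate intervals. A 3' tag counts 1 transcript end, so levels carry no length correction. UMIs within a barcode are not independent, so the intervals are too narrow where few barcodes hold most of a gene.

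The members and lists were chosen with earlier results of these data known. Named genes were all members in every class, the G1 to S genes called over all barcodes or in rods, Müller glia or neurogenic cells, and the 2 genes most like each member. The call rule was run on simulated Poisson counts. These hold no spread between barcodes or libraries, so the run cannot show how the intervals perform on the real counts. GGACT was counted in the longest transcript of GENCODE M21, and promoters came from RefSeq.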

Additional observations from a re-analysis of the deposited data

Results flagged for a closer look

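For 3 genes, classes were called in opposite directions between the libraries. These differences between classes were not tested, since each genotype is 1 library. Ratios of the levels, Mettl14-cKO over control, are given.

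Cdkn1c was called higher in ganglion cells (ratio 2.52) and lower in amacrine cells (0.641), horizontal cells (0.280), Müller glia (0.692) and neurogenic cells (0.475). The ganglion and horizontal values rest on a few barcodes each. Among the amacrine subclasses only GABAergic cells were called lower. Ccnd1 was called higher in rods (ratio 1.30), cone-gated barcodes (1.73), bipolar cells (1.80) and astrocytes (2.38), and lower in neurogenic cells (0.708). Of these, the bipolar call was the only 1 kept both under the stricter cell filter with Scrublet and without the 5 highest barcodes. Ccnd3 was called higher in rods (ratio 1.47) and lower in bipolar cells (0.612) and Müller glia (0.592), and these calls were kept under both.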

How the results depend on the processing

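Alternatives covered the UMI minimum, the cell filter with Scrublet, scaling, thinning, equal barcode weights, the gate, the gene minimum and the fold. Leaving out the 5 highest barcodes and weighting by Mettl14-cKO class shares were chosen after seeing the data. The 5 barcodes are a larger part of the library with fewer barcodes in a class, so leaving them out does not weigh on both libraries alike. Of 35 calls, all were kept without a UMI minimum, with a minimum of 2000 UMIs and without a gate margin; 33 were kept with median ratio scaling, 34 without mitochondrial and ribosomal protein genes in the total and 32 with a stricter gate score. With the stricter cell filter and Scrublet 31 of the 35 were kept, and without the 5 highest barcodes 32 of the 35, where a call left with under 30 UMIs counted as lost. Equal weight per barcode moved 9 of 81 log2 ratios out of their interval and reversed no call, among them Cdkn1c in ganglion cells (0.73, against 1.34), horizontal cells (-3.38, against -1.84) and neurogenic cells (-0.84, against -1.07). Before median ratio scaling, the log2 of the median ratio lay between -0.064 (rods) and 0.039 (amacrine cells), over genes with at least 100 UMIs in both libraries together. The scaling removes this shift.

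Thinned to 1500 UMIs, 22 of the 35 calls were kept: over all barcodes 2 genes were called higher and 2 lower, and 8 gene and class pairs higher, against 4, 1 and 13. Fewer UMIs remain after thinning, and a call left with under 30 was counted as lost. At a fold of 1.5, over all barcodes 1 gene was called higher and 0 lower, and 9 pairs lower, against 4, 1 and 17; a wider fold admits fewer calls by construction. Ccnd1 in cone-gated barcodes was the only called value that reversed (-0.05 with the stricter cell filter and Scrublet, against 0.79); the cause was not tested. Weighted by Mettl14-cKO class shares, the log2 ratio was -0.35 for Cdkn1c and -0.05 for Ccnd1, against -0.24 and 0.02. No paired analysis was possible because each genotype is 1 library. Few UMIs limit Rbl1 and Ccnd2 outside astrocytes, and few barcodes limit horizontal cells and astrocytes.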
